A study of Mus musculus with 3 samples.

Results

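Mast cell progenitors were compared with mature mast cells of the mouse peritoneal cavity, gene by gene, across the genes with a clear signal. A gene entered the comparison when its log2 level exceeded 8 on at least 1 of the 2 mast cell arrays, and 931 of 22180 measured genes did so. Of these, 476 exceeded 8 on both arrays, 143 on the progenitor array alone and 312 on the mature array alone. The last 2 groups had to differ to some degree to enter, so their counts are not independent of how they were chosen.

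Cells came from 5 naïve female BALB/c mice aged 10 to 11 weeks, pooled before sorting. Both mast cell populations were lineage negative or low, c-kit high, FcεRI positive, T1/ST2 positive and CD16/32 intermediate, and negative for CD127 and CD25. Side scatter was low in progenitors and high in mature cells, and integrin β7 was high in the former and negative to intermediate in the latter. Type 2 innate lymphoid cells of the same cavities give the third array. They were sorted as lineage negative, c-kit negative or low, FcεRI negative, CD16/32 negative and positive for CD127, CD25 and T1/ST2. The third array serves as context, and it also entered the mean by which each gene's probe set was chosen. RNA of 100 cells per population was amplified, labelled and hybridised to 1 array. No value therefore has a replicate error, no difference was tested, and all counts below are counts of genes past a fixed fold on these arrays. Populations of sorted cells are averaged, so fewer cells carrying a transcript and less of it per cell cannot be told apart.

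Mast cells leave the bone marrow as sparsely granulated progenitors and mature in tissues. Mature connective tissue mast cells, such as those of the peritoneum, fill their granules with proteases, heparin bound to the proteoglycan serglycin, histamine and serotonin, and release them when antigen crosslinks IgE on the receptor FcεRI. Survival of the lineage depends on Kit, the receptor for stem cell factor. Integrin β7 is known for guiding progenitors into tissues.

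Among the genes above 8, those past 4-fold were mostly lower in progenitors, whereas signs over all genes ran the other way. Among the 931 genes, 153 (16.4%) had a progenitor level at least 4-fold below that in mature cells, a log2 difference of -2 or less, and 17 (1.83%) were past 4-fold in the opposite direction. At 2-fold the counts were 294 (31.6%) lower and 65 (6.98%) higher, and 572 genes lay within 2-fold; here and in the lists, 2-fold counts include the 4-fold ones. Over all 22180 genes the shares past 4-fold were 0.852% lower and 0.126% higher, and those past 2-fold 2.03% and 0.604%. Among the 476 genes above 8 on both arrays, where no difference was needed for entry, 13 (2.73%) were lower and 2 (0.42%) higher by 4-fold, and 51 (10.7%) and 23 (4.83%) by 2-fold. The median log2 difference, progenitors minus mature cells, was -0.14 for the 931 genes, 0.0 for the 476 and 0.0 for all genes. Under quantile normalization it was -0.04 for the same 931 genes and 0.021 for the 955 genes then above 8. By sign alone, 504 of the 931 genes were lower and 334 higher in progenitors, against 192 and 191 of the 476, and 2792 and 6466 of all genes. Of the 671 genes with ordinary symbols, meaning no olfactory or vomeronasal receptor, small RNA or provisional name, 128 (19.1%) were lower and 5 (0.745%) higher by 4-fold, and 248 (37.0%) and 24 (3.58%) by 2-fold.

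**Figure D1:**
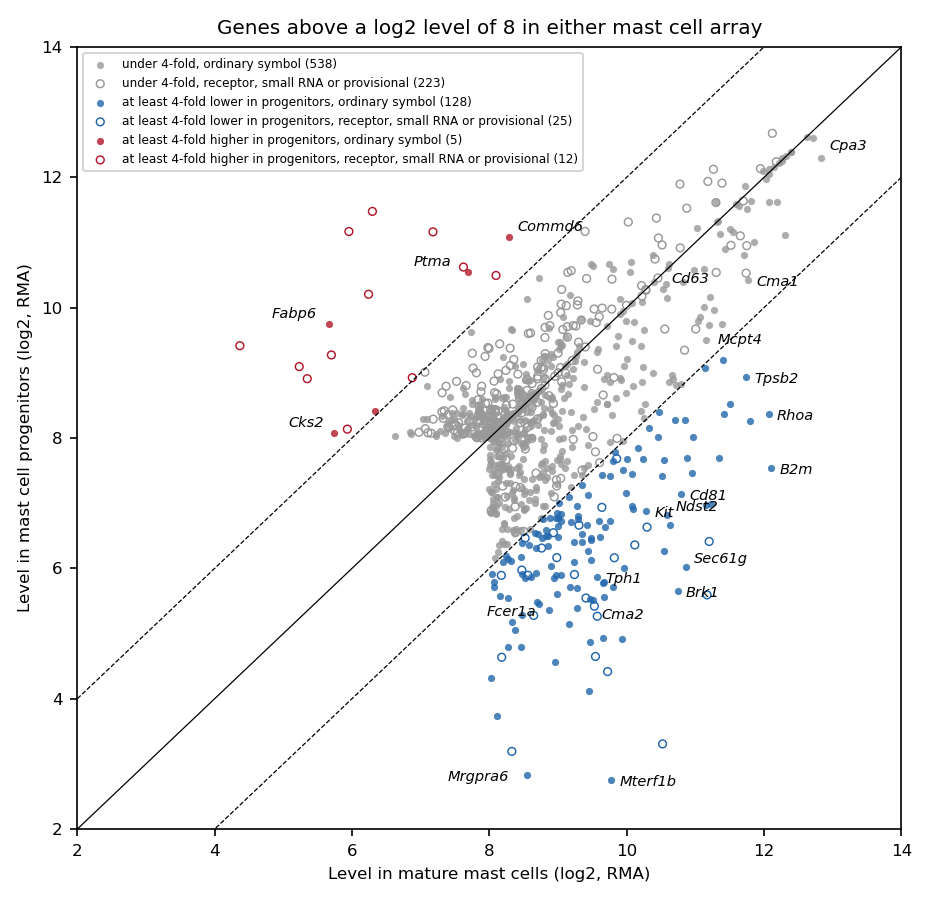
Level of each of the 931 genes in mast cell progenitors (vertical axis) against mature mast cells (horizontal axis), both log2 RMA values from 1 array per population. The solid line marks equal levels and the dashed lines 4-fold; 153 genes lie on or below the lower dashed line and 17 on or above the upper one, and 12 of those 17 are open circles (receptors, small RNAs or provisional names).

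More genes were lower than higher by 4-fold in each of 4 bands of signal, taken by the brighter of the paired levels. Among 562 genes between 8 and 9, 55 were lower and 5 higher by 4-fold. Between 9 and 10, 59 of 202 were lower and 4 higher. Between 10 and 11, 26 of 88 were lower and 4 higher. Above 11, 13 of 79 were lower and 4 higher. Genes just past the entry level behaved like those just short of it. The 103 genes within 0.1 above the entry level and the 127 within 0.1 below it each had a median difference of 0.0 and 4 lower genes. Exact equality of both mast cell values was common. It was found for 93 of the 931 genes (9.99%) and for 58.3% of all genes, so small differences may not be visible in this table.

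Mast cell markers were present in both populations, although not all of them in progenitors. Cpa3, the mast cell carboxypeptidase, was at 12.30 in progenitors against 12.83 in mature cells, with 5.28 in lymphoid cells. The chymase gene Mcpt4 was at 9.73, 11.20 and 4.70 in the same order. These genes set both mast cell arrays far from the lymphoid one. Kit was at 6.88 in progenitors against 10.29 in mature cells, with 6.63 in lymphoid cells, and Fcer1a, whose product binds IgE as part of FcεRI, at 5.37, 8.87 and 5.05. For these 2 transcripts the progenitor array thus lay within 2-fold of the lymphoid array, although c-kit and FcεRI proteins were used to sort the progenitors. Of 8 listed sort marker genes 7 were measured, and the gene for T1/ST2 was not among them. The measured ones other than Kit and Fcer1a were below 8 on both mast cell arrays. Itgb7, the integrin β7 chain, had 7.60 on the progenitor array and 7.82 on the mature array. This difference of -0.22 is small and runs opposite to the integrin β7 gate, which was high for progenitors. Fcgr3, an IgG receptor of the CD16/32 pair, had 7.37 on both.

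Markers of other peritoneal cells were dim on both arrays. No measured member of the lists for macrophages (15 genes), neutrophils (11), eosinophils (7), type 2 innate lymphoid cells (15), mesothelium (10) or red cells and platelets (5) exceeded 8 in either mast cell population. The mean level of the macrophage list was 6.38 in progenitors and 6.27 in mature cells, and that of the innate lymphoid list 6.31 and 6.34. In sorted lymphoid cells Il7r, Klrg1, Arg1, Tnfrsf18, Ccr2, Cxcr6 and Ctla2a of that list exceeded 8, from 8.11 (Klrg1) to 11.37 (Ctla2a). Its other members stayed below 8 there, and Thy1 (6.68), Rora (6.64), Il17rb (6.10) and Bcl11b (7.02) had the same value on every array. A dim marker therefore does not by itself show that its cells were absent. Of 8 B cell genes, Ighm alone exceeded 8, at 8.43 and 8.24, and of 14 T and NK cell genes Nkg7 alone, at 8.15 in progenitors and 7.40 in mature cells. Of 7 basophil genes Fcer1a alone did so, in mature cells. Fcer1a is shared with the mast cell lists. By comparison, the mean of the 8 mast cell markers was 8.18 in progenitors and 10.23 in mature cells.

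The gene lists that follow count members above 8 on either array, many of which entered through mature cells alone, so their counts describe these arrays beside the 16.4% (4-fold lower) and 31.6% (2-fold lower) of all 931 genes and single out no list.

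Several granule protease genes were bright in both populations. Of 14 measured genes 7 exceeded 8 on either array, of which 4 were lower in progenitors by 2-fold and 2 by 4-fold, and their median difference was -1.34. Cma1, also a gene of the chymase family, was at 10.42 in progenitors against 11.76 in mature cells, with 6.85 in lymphoid cells. Tpsb2, a tryptase gene, was at 8.94 and 11.74, which is 6.94-fold lower, and 7.85 in the lymphoid array. The neighbouring tryptase gene Tpsab1 was at 8.26 and 8.63, so the tryptase pair differed unequally. Cma2, a chymase-family gene, was at 5.51 in progenitors against 9.51 in mature cells, with 5.29 in lymphoid cells. Its progenitor level is below the array's median of 6.32, where signal may be background, so the fold is given as a bound over that median, at least 9.14-fold. The same rule is used for every fold written as "at least". Ctsg, which encodes the granule protease cathepsin G, was at 7.90 and 8.80. Protease genes of 1 family are similar in sequence, and how far their probe sets share signal was not tested.

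**Figure D2:**
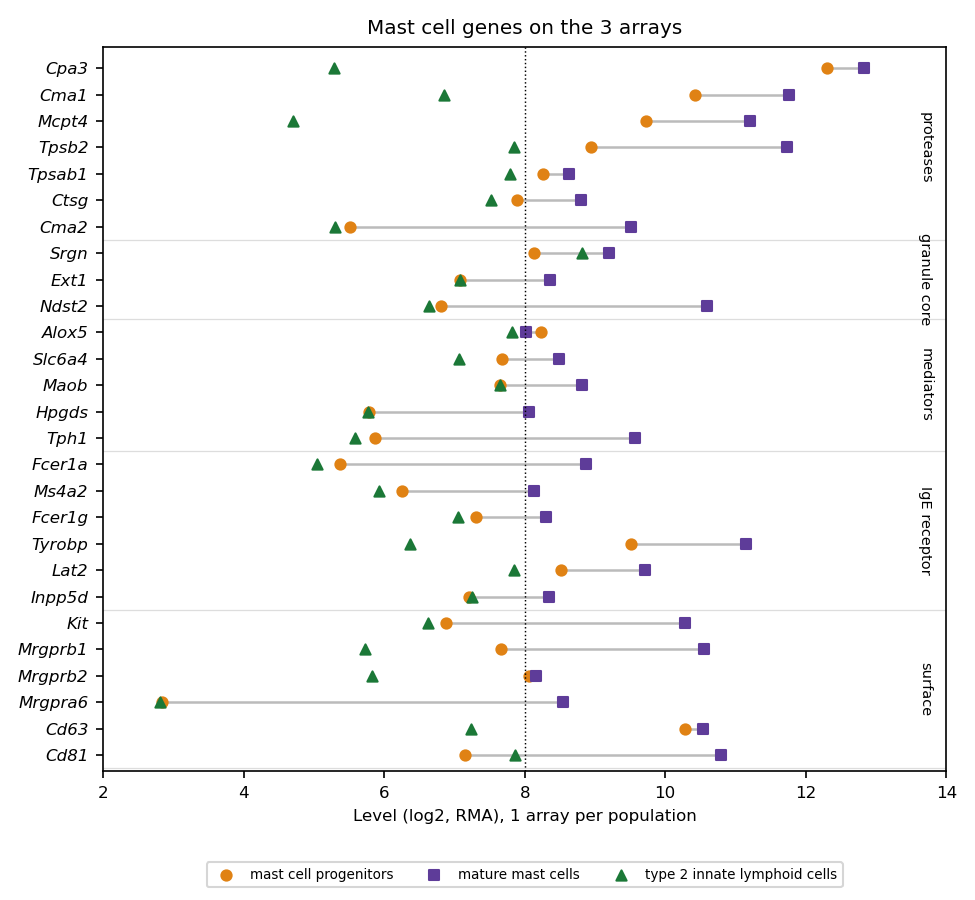
Log2 levels of 27 mast cell genes on the arrays of mast cell progenitors (circles), mature mast cells (squares) and type 2 innate lymphoid cells (triangles), 1 array each, with the level of 8 as a dotted line. Cpa3, Cma1 and Mcpt4 lie above 8 in both mast cell populations, whereas Kit, Fcer1a, Ndst2, Tph1 and Cma2 lie above 8 in mature cells and near the lymphoid level in progenitors.

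Few genes that build the granule matrix were bright enough to enter. Of 21 measured genes of the serglycin core and heparin synthesis 3 exceeded 8, and all 3 were at least 2-fold lower in progenitors. Over all 21 the median difference was 0.0, and 12 had equal values on both mast cell arrays. Ndst2, which encodes the sulfotransferase needed for mast cell heparin, was at 6.81 in progenitors against 10.59 in mature cells, with 6.64 in lymphoid cells, a 13.7-fold difference. Srgn, the serglycin core protein gene, was at 8.13, 9.20 and 8.81, and Ext1, a heparan sulfate polymerase gene, at 7.08, 8.36 and 7.08. Srgn was thus present on all 3 arrays, whereas Ndst2 and Ext1 exceeded 8 in mature cells alone. The direction of Ndst2 and Ext1 was therefore set by how they entered.

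Mediator genes split in the same way. Of 20 measured genes 6 exceeded 8, and 4 of them were lower by 2-fold and 2 by 4-fold. Tph1, whose enzyme limits serotonin production outside the brain, was at 5.86 in progenitors against 9.57 in mature cells, at least 9.54-fold lower. Hpgds, which makes prostaglandin D2, was at 5.79 and 8.07. Maob, an amine-degrading oxidase gene, was at 7.64 and 8.82, and Slc6a4, the serotonin transporter gene, at 7.68 and 8.49. Alox5, the first enzyme of leukotriene synthesis, was the exception, at 8.24 in progenitors and 8.01 in mature cells. Hdc, which forms histamine, did not exceed 8 on either array, at 5.59 and 7.05.

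Of 23 measured genes of the IgE receptor and its proximal signalling, 7 exceeded 8, of which 5 were lower in progenitors by 2-fold and 1 by 4-fold, with a median of -1.19. The bound for Fcer1a was at least 5.89-fold. Ms4a2, the β subunit that amplifies the receptor's signal, was at 6.25 and 8.13, and Fcer1g, the γ chain that carries the activation motif, at 7.31 and 8.30. All 3 chains of FcεRI were therefore lower on the progenitor array, by unequal amounts. Tyrobp, an adaptor of activating receptors related to the γ chain, was at 9.51 in progenitors against 11.15 in mature cells, with 6.37 in lymphoid cells. The membrane adaptor gene Lat2 was at 8.52 and 9.71, and Inpp5d, the inositol phosphatase SHIP1 that restrains degranulation, at 7.21 and 8.34. Lat, a related adaptor gene, had the value 8.30 on all 3 arrays.

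Surface receptors and their signalling partners showed both large and small differences. Pik3cg, the catalytic subunit of the lipid kinase PI3Kγ, was at 6.17 in progenitors against 8.47 in mature cells, and with Kit it made up both members above 8 of the 25 measured genes of Kit and cytokine receptor signalling. Of the Mas-related receptors, Mrgprb1 was at 7.66 and 10.55, 7.41-fold lower, and Mrgpra6 at 2.83 and 8.55. Mrgprb2, the receptor through which cationic peptides and drugs activate mast cells, was at 8.06 in progenitors against 8.16 in mature cells, and at 5.82 in innate lymphoid cells. Members of this receptor family thus ranged from a near-equal level to at least 4-fold lower. Among tetraspanins, which organise membrane proteins, Cd63 was at 10.29 and 10.54, and Cd81 at 7.15 and 10.79. Rgs18, a regulator of G protein signalling of blood cells, was at 5.93 in progenitors against 8.69 in mature cells, with 4.24 in lymphoid cells, and Serpinb1a, an inhibitor of neutrophil-type granule proteases, at 8.27, 10.71 and 6.73.

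Promoters are shown for 4 of these genes, because GATA factors are known regulators of the mast cell programme and because the genes differ in how far progenitors lay below mature cells. Each line gives the 250 bases before the transcription start from RefSeq's GRCm38.p6 annotation, 5′ to 3′ on the gene's own strand. Capitals mark GATAA on either strand (read as TTATC on the other) and the E-box CAGCTG, which is its own reverse complement. Cpa3 lies on the minus strand at chr3:20242182-20242431, Mcpt4 on the minus strand at chr14:56062311-56062560, Fcer1a on the minus strand at chr1:173227230-173227479 and Ms4a2 on the minus strand at chr19:11623720-11623969.
Cpa3: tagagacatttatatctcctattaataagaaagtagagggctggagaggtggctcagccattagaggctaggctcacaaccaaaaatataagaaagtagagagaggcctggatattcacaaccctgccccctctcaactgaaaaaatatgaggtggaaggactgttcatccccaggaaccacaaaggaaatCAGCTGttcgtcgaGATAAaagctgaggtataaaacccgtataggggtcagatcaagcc
Mcpt4: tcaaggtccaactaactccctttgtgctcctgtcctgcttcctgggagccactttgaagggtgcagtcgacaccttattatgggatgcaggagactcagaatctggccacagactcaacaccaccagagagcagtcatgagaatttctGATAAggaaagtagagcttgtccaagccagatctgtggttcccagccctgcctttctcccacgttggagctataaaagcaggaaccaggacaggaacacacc
Fcer1a: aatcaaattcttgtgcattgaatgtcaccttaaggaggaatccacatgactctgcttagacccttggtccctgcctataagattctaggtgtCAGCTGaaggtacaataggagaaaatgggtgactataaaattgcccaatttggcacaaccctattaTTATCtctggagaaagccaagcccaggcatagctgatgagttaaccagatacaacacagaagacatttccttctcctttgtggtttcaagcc
Ms4a2: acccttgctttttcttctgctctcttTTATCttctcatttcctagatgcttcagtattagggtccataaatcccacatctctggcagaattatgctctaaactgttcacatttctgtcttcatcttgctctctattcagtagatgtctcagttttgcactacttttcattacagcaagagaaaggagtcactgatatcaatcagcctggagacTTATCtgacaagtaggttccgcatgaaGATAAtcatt

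Matches were found in genes of both kinds. With the base before the start counted as -1, the first letter of GATAA lay at -45 in Cpa3 and -102 in Mcpt4, both bright in progenitors, and of TTATC at -92 in Fcer1a, which was dim there. Ms4a2 had 3 matches, at -224, -37 and -10. CAGCTG began at -59 in Cpa3 and at -158 in Fcer1a. The windows of Kit, Ndst2, Tph1 and Hpgds held neither motif. A GATAA match was present in 23% of the 27025 genes of the promoter table, in 19.6% of the 628 genes above 8 that the table holds, and in 16.5% of the 115 that were at least 4-fold lower in progenitors. For CAGCTG the shares were 12.8%, 11.5% and 7.83%. These letters describe the windows only and show no binding.

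The third array separated the 153 lower genes into groups. In innate lymphoid cells, 81 of them were within 2-fold of the progenitor level, 48 within 2-fold of the mature level, 14 at least 2-fold above the mature level, 5 at least 2-fold below the progenitor level and 5 in between. Among ordinary symbols the first 2 counts were 59 and 46. The first group held Kit, Fcer1a, Cma2, Ndst2, Tph1 and Hpgds, and 17 of its genes had exactly equal values in progenitors and lymphoid cells. It also held genes with no known restriction to mast cells. Brk1, part of the WAVE complex that starts actin branching, was at 5.65 in progenitors against 10.74 in mature cells, with 5.69 in lymphoid cells, and Plek, a substrate of protein kinase C in blood cells, at 6.95, 10.08 and 6.95. Tpsb2, Mrgprb1, Rgs18, Serpinb1a and Aldh2, the mitochondrial aldehyde dehydrogenase gene (9.20, 11.41 and 7.19), made up the 5 genes whose lymphoid level lay at least 2-fold below that of progenitors.

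**Figure D3:**
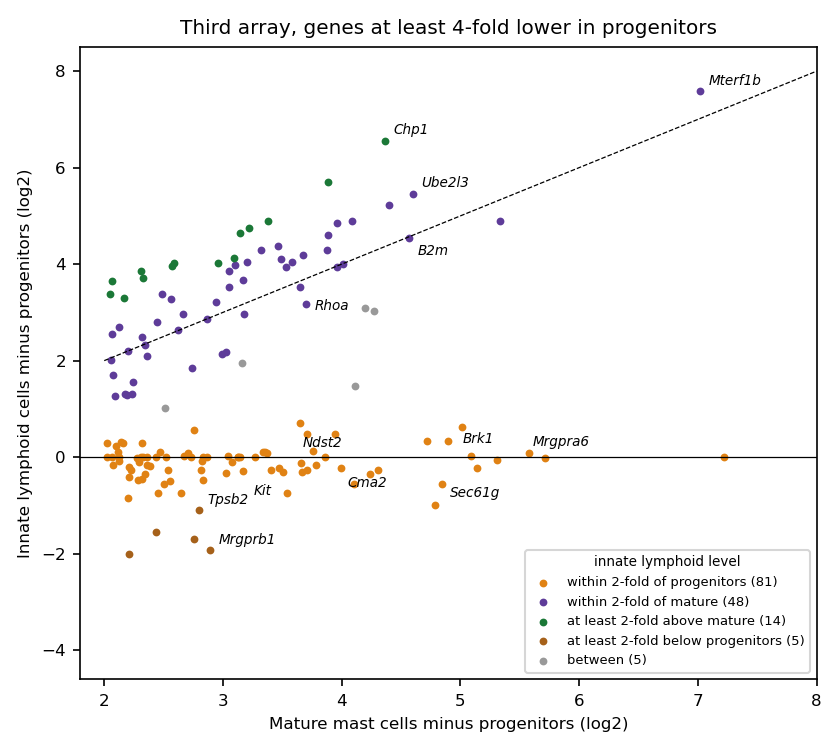
For the 153 genes at least 4-fold lower in progenitors, innate lymphoid cells minus progenitors (vertical axis, log2) against mature mast cells minus progenitors (horizontal axis, log2), 1 array per population. Points near the solid line (81 genes, orange) have like levels in progenitors and lymphoid cells, and points near the dashed line (48 genes, purple) like levels in mature and lymphoid cells.

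The gene lists were also placed on this division. Mast cell lists were drawn for genes of that lineage and broad lists for genes of most cells. Unlike lymphoid levels between them were therefore partly set by that choice. In 6 mast cell lists (proteases, granule matrix, mediators, IgE receptor, Kit and cytokine signalling, surface receptors) 29 genes exceeded 8 and 9 were at least 4-fold lower (31.0%). Of those 9, 7 had a lymphoid level within 2-fold of progenitors, 2 lay at least 2-fold below progenitors and 0 were within 2-fold of the mature level. In 10 lists of broadly expressed genes (cytosolic ribosome, translation, oxidative phosphorylation, proteasome, ubiquitin, endoplasmic reticulum, chaperones, actin, splicing and Rab), grouped with their values known, 134 exceeded 8 and 31 were at least 4-fold lower (23.1%), beside 16.4% of all genes above 8. Of those 31, 8 had a lymphoid level within 2-fold of progenitors, 15 within 2-fold of mature cells and 6 at least 2-fold above mature cells. None of these genes was 4-fold higher in progenitors. Broad lists outside that group included the high mobility group list (7 genes, 1 lower and 1 higher by 4-fold), mitochondrial ribosomal proteins (4 genes, 0 lower) and the mitochondrial genome (10 genes, 0 lower). Others were glycolysis, lysosomal genes and SNAREs (2 genes and 0 lower each), the vacuolar proton pump (2, 1 lower) and histones (4, 1 lower). Antioxidants and G protein genes had 6 genes with 1 lower each, and the S100, annexin and galectin list 6 with 2 lower. The 23.1% therefore depends on which lists were grouped. The arrays are shared between these readings, so the division is a description of 3 levels and not a separate comparison.

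The genes bright in mature mast cells and in lymphoid cells included several of general function. B2m, which encodes β2-microglobulin, the partner of class I heavy chains, was at 7.54 in progenitors against 12.11 in mature cells, with 12.08 in lymphoid cells, 23.7-fold lower in progenitors than in mature cells. Ywhaz, a 14-3-3 phosphoprotein-binding adaptor, was at 7.69, 11.34 and 11.21. Ube2l3, a ubiquitin-conjugating enzyme, was at 4.87, 9.47 and 10.33. Chp1, a calcium-binding partner of sodium-proton exchangers, was at 3.74, 8.11 and 10.30, which places lymphoid cells above mature mast cells. Mterf1b, a gene related to mitochondrial transcription termination, was at 2.75, 9.77 and 10.34, at least 11.0-fold lower by its bound over the median.

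Ribosomal protein genes were mixed. All 63 listed genes for cytosolic ribosomal proteins were measured and 29 exceeded 8, with 4 lower and 0 higher by 4-fold, 8 lower and 2 higher by 2-fold, and a median of -0.42. Rps28, of the small subunit, was at 5.61 in progenitors against 8.99 in mature cells, with 10.50 in lymphoid cells. Its other probe set was dim and near equal, at 4.02, 4.06 and 4.06. Rps13 was instead higher in progenitors than in mature cells, at 10.67, 9.48 and 10.66, and so was Rplp0, of the ribosomal stalk, at 9.66, 8.33 and 6.84. Rpl4 was near equal on all arrays, at 12.13, 12.07 and 12.09, although the mean over its probe sets differed by -1.49. The difference therefore varied by gene within a complex whose members are made in fixed proportion, from -3.49 for Rpl38 to 1.33 for Rplp0, the latter 0.67 as the mean over its probe sets. Of 15 translation factor genes above 8, 1 was 4-fold lower, 4 were lower by 2-fold and 0 were 2-fold higher, with a median of -0.56. Eef1a1, which delivers aminoacyl-tRNA to the ribosome, was at 8.01, 10.97 and 12.04, and its difference fell short of 4-fold, at -1.48, as the mean over its probe sets. Naca, of the nascent-chain complex, was at 10.40 in both mast cell populations. Ribosomal and elongation factor genes have many processed copies in the genome, and their part in these signals was not tested.

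Respiratory chain genes are encoded in both genomes of the cell. The 10 measured protein genes of the mitochondrial genome, a list added after the values were seen, differed between the mast cell arrays by -0.09 to 0.15, and 0 of 10 reached 2-fold. ND4, a subunit of complex I, was at 12.63 on both, and COX1, the catalytic subunit of cytochrome oxidase, at 12.24 and 12.26. Of 25 nuclear genes of oxidative phosphorylation above 8, 6 were lower and 0 higher by 4-fold, 11 lower and 1 higher by 2-fold, and 13 within 2-fold, with a median of -0.41. Ndufa2, an accessory subunit of complex I, was at 5.53 in progenitors against 9.47 in mature cells, with 6.02 in lymphoid cells. Atp5mpl, a small subunit of ATP synthase, was at 5.4, 9.27 and 9.69. Uqcrb, of complex III, was at 10.55 in progenitors against 10.04 in mature cells, and Atp5k, another small ATP synthase subunit, at 10.20 and 9.18. Atp5l, a nuclear ATP synthase gene near the top of the scale like the mitochondrial genes, was near equal too, at 11.98, 12.03 and 11.92. Genome and signal level therefore cannot be told apart here, and how far signal saturates there was not tested.

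**Figure D4:**
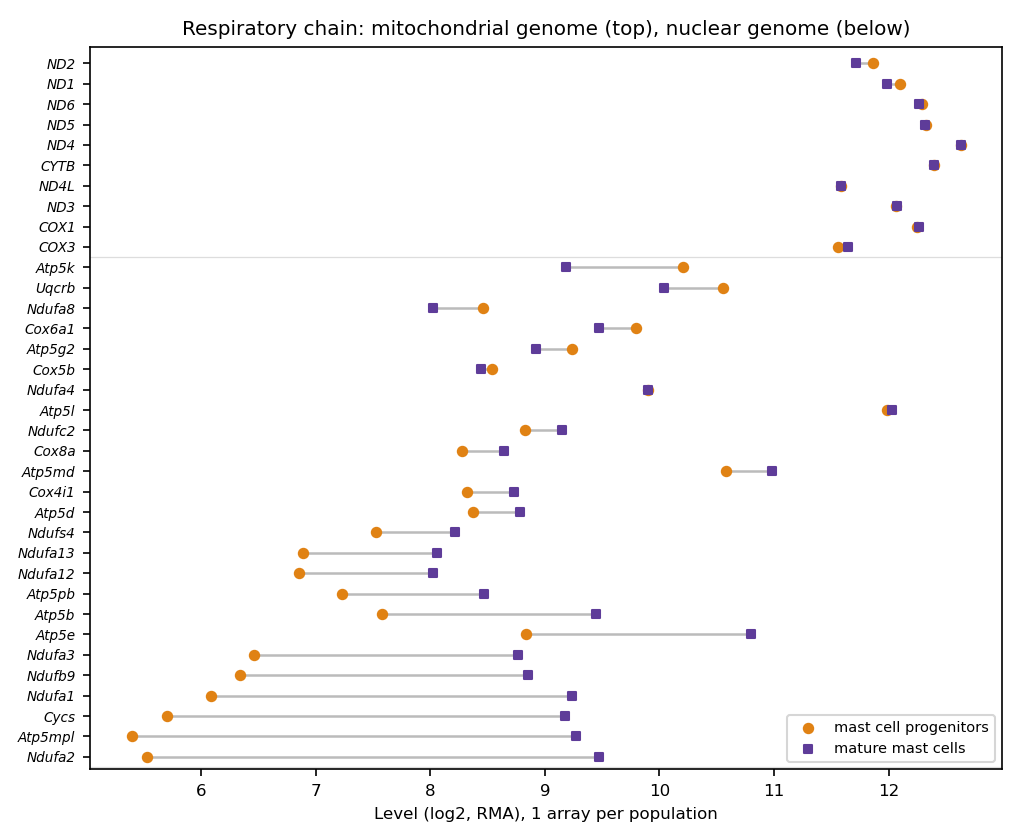
Log2 levels of 10 mitochondrially encoded genes (top) and 25 nuclear genes of oxidative phosphorylation (below) in mast cell progenitors (circles) and mature mast cells (squares), 1 array each. The upper pairs nearly coincide, whereas the nuclear pairs run from Atp5k, higher in progenitors by 1.02, to Ndufa2, at 5.53 against 9.47.

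Genes of the secretory entry pathway followed. Of 13 genes of endoplasmic reticulum translocation and folding above 8, 8 were lower in progenitors by 2-fold and 4 by 4-fold, with a median of -1.15. Sec61g, a subunit of the translocation channel, was at 6.02 in progenitors against 10.86 in mature cells, with 5.46 in lymphoid cells, at least 23.3-fold lower. Its partner Sec61b was at 7.30 and 8.99. Pdia3, a disulfide isomerase of glycoprotein folding, was at 5.15, 9.16 and 9.16, and Ost4, of the oligosaccharyl transferase, at 7.52, 9.95 and 7.52. The translocon-associated gene Ssr1 was at 9.55 in progenitors against 9.12 in mature cells. Bcap31, an endoplasmic reticulum export factor, was at 6.0, 9.96 and 9.95.

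Vesicle traffic and protein turnover genes were fewer. Of 6 Rab GTPase genes above 8, 3 were 4-fold lower and 5 lower by 2-fold. Rab10 was at 4.79 in progenitors against 8.46 in mature cells, with 8.98 in lymphoid cells, and Rab1a, which acts between endoplasmic reticulum and Golgi, at 7.45, 10.07 and 10.07. Rab11b, of recycling endosomes, was at 8.48 in progenitors against 7.84 in mature cells. Vamp8, a SNARE of granule fusion in mast cells, was at 8.30 and 9.0. Of 6 proteasome genes above 8, 2 were 4-fold lower, among them the ATPase subunit gene Psmc2 at 8.27, 10.84 and 12.23, whose difference was -1.29 as the mean over probe sets. Of 4 ubiquitin conjugation genes above 8, 3 were 4-fold lower, whereas Nedd8 differed little, at 8.59 and 8.66. Of 38 measured lysosomal genes 2 exceeded 8, and neither reached 4-fold.

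Actin regulators shape the cell cortex. Of 18 such genes above 8, 4 were lower by 4-fold and 9 by 2-fold, and 0 were 2-fold higher, with a median of -1.01. Rhoa, a GTPase that controls actin contractility, was at 8.37 in progenitors against 12.07 in mature cells, with 11.54 in lymphoid cells. Arpc2, of the branching complex Arp2/3, was at 6.67, 10.63 and 11.53. Its partner Arpc5 had 8.72 in both mast cell populations and 9.73 in lymphoid cells; as 58.3% of all genes are tied in this table, what an exact tie means is not known. Capza1, an actin-capping subunit, was at 9.86 in progenitors against 9.07 in mature cells. Vim, the intermediate filament vimentin, had the value 9.95 on all 3 arrays.

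**Figure D5:**
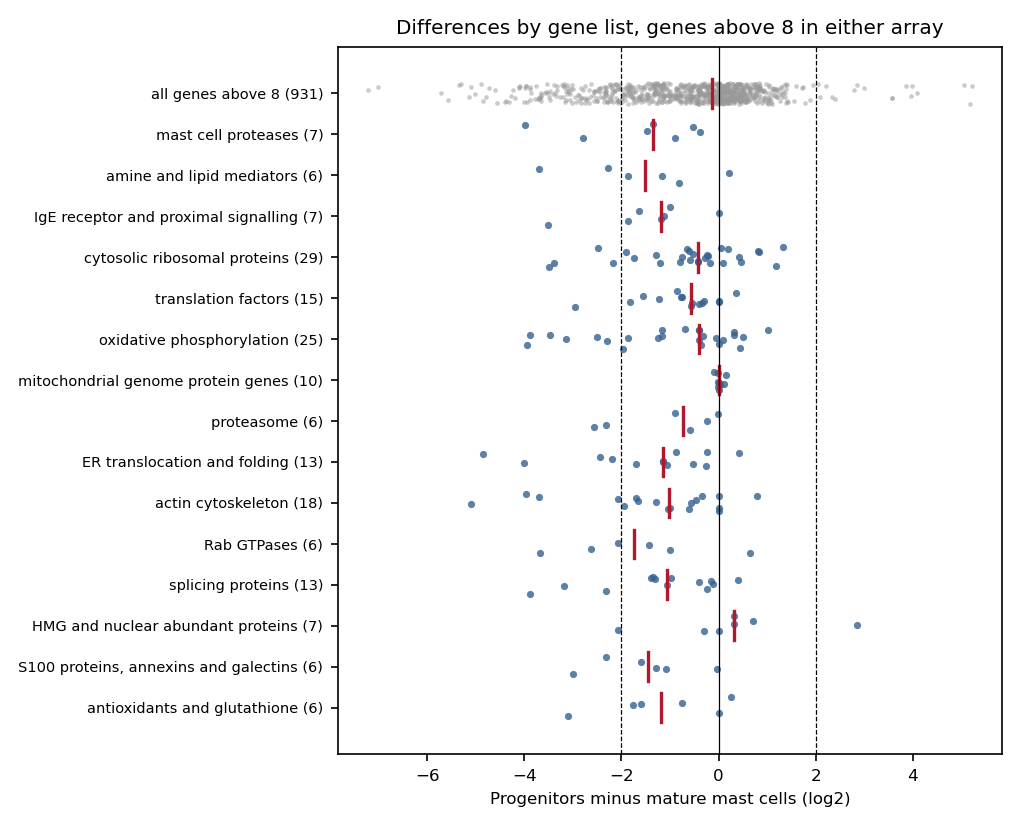
Progenitors minus mature mast cells (log2, horizontal axis) for the genes above 8 in either array of each list, with the number of genes in brackets, 1 point per gene, the median as a red bar and dashed lines at 4-fold. The 10 mitochondrially encoded genes cluster at 0, and points of most other lists lie on both sides of -1, beside a median of -0.14 for all 931 genes.

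Splicing proteins and chromatin proteins are nuclear. Of 13 splicing protein genes above 8, 7 were lower by 2-fold and 3 by 4-fold, with a median of -1.05. Hnrnph2, an RNA-binding regulator of exon choice, was at 5.77 in progenitors against 9.65 in mature cells, with 10.37 in lymphoid cells, and Hnrnpc, which packages nascent transcripts, at 6.92, 10.09 and 9.88. Of 7 genes for high mobility group and other abundant nuclear proteins, 1 was lower and 1 higher by 4-fold, with a median of 0.31 that stayed above 0 under each scaling tried. Npm1, the nucleolar protein nucleophosmin, was at 11.62 in progenitors against 11.30 in mature cells. Histones were matched through current symbols, in a list added after the values were seen, and 4 exceeded 8. H2ac21 was at 4.93 and 9.65 and H4c9 at 8.30 and 7.09, so members differed in both directions on the probe sets used. The other probe set of H2ac21 had the value 5.31 on all 3 arrays. Rfc2, a subunit of the replication clamp loader, was at 6.46 in progenitors against 9.49 in mature cells, with 6.13 in lymphoid cells.

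Calcium-binding, redox and immune genes completed the lists. Of 6 genes above 8 of the S100, annexin and galectin list, 5 were lower by 2-fold and 2 by 4-fold, with a median of -1.45. Lgals1, the carbohydrate-binding protein galectin-1, was at 8.52 in progenitors against 11.51 in mature cells, with 10.65 in lymphoid cells, and S100a6 at 7.68, 10.01 and 11.38. Txn1, the cytosolic thioredoxin, was at 5.85, 8.95 and 9.98, and Sod1, the cytosolic superoxide dismutase, at 8.90, 10.67 and 11.46. Of the class I heavy chains, H2-K1 had the value 8.53 on all 3 arrays, unlike its light chain B2m. Interferon response genes were few, with 3 of 25 measured above 8 and none past 2-fold, among them Ifit3 at 8.81 and 9.05. Mcl1, which protects blood cells from apoptosis, was at 8.45, 9.52 and 10.32, and Bcl2, of the same family, at 7.73, 9.04 and 7.73.

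Of the 17 genes at least 4-fold higher in progenitors, 5 had ordinary symbols. Fabp6, an intestinal bile acid binding protein gene, was at 9.75 in progenitors against 5.67 in mature cells, with 6.10 in lymphoid cells, at least 11.0-fold higher. Ptma, which encodes the nuclear protein prothymosin α of growing cells, was at 10.54, 7.69 and 8.41. Commd6, a gene of copper and ubiquitin-related COMMD proteins, was at 11.08, 8.28 and 8.68. Cks2, a subunit of cyclin-dependent kinases, was at 8.08, 5.74 and 4.80, and its other 3 probe sets, which share identical values, were at 10.15, 4.69 and 3.63. Spink4, a serine protease inhibitor of the gut, was at 8.41, 6.33 and 6.21. All 5 were therefore nearer to each other in mature and lymphoid cells than either was to progenitors. Of 26 measured mitosis genes, the others above 8 were the tubulin genes Tubb5 (8.79 and 9.39) and Tuba1b (12.16 and 12.15). The rest were below 8, and 21 of the 26 had equal values on both arrays, so nothing is read from them. Rbpj, the transcription factor of Notch signalling, was at 8.63 in progenitors against 7.43 in mature cells, with 10.78 in lymphoid cells.

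Symbols that are not known to mark mast cells were also among the genes past 4-fold. Of 1394 receptor genes of the olfactory and vomeronasal families, which work in sensory neurons, 53 exceeded 8, and of these 11 were lower and 4 higher by 4-fold. Those 15 are 28.3% of the receptors above 8, beside 19.8% (133 of 671) of the ordinary symbols. Lower genes made up 20.8% of the receptors above 8 and 19.1% of the ordinary symbols. The counts of higher genes were 4 of 53 against 5 of 671. Of 121 provisional names above 8, 9.09% were past 4-fold in either direction. How much of either class is amplification or hybridisation noise was not tested.

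MicroRNA genes gave the other large class, with 78 of 483 above 8. Of these 5 were lower and 5 higher by 4-fold, and their median difference was 0.41. Probe sets of these genes can report longer precursor transcripts or host sequence, so the mature microRNA itself was not measured. The mature sequences of 6 of the 10 genes are given from RefSeq (GRCm38.p6) because a pair of them shares a seed and differed in opposite directions. Capitals mark the seed, bases 2 to 8 from the 5′ end.
miR-15a-5p: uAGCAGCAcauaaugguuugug
miR-497a-5p: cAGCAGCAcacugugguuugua
miR-708-5p: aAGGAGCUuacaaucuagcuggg
miR-218-5p: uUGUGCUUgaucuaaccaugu
miR-152-3p: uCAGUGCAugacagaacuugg
miR-32-5p: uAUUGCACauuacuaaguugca

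The seed AGCAGCA is common to miR-15a-5p and miR-497a-5p. The former lies on the minus strand at chr14:61632075-61632096 and the latter on the plus strand at chr11:70234730-70234751. Mir15a was at 10.49 in progenitors against 8.10 in mature cells, with 6.92 in lymphoid cells, and Mir497 at 6.66, 9.31 and 5.93. The remaining 4 seeds printed differ from this one and from each other. Mir708 was at 6.41 in progenitors against 11.20 in mature cells, Mir218-2 at 4.65 and 9.55, and Mir152 at 6.36 and 10.12. Mir32 was at 8.91 in progenitors against 5.35 in mature cells. The largest differences toward progenitors were in genes whose sequences are not printed. These were Mir5124a (11.17 and 5.96), Mir344c (9.42 and 4.37) and Mir695 (10.21 and 6.24), in progenitors and mature cells.

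Genes of like level in both populations made up the majority, 572 of 931 within 2-fold. Besides the mitochondrial genes they included Malat1, an abundant nuclear noncoding RNA, at 12.22 on both mast cell arrays and 12.27 on the lymphoid one, and Rn7sk, the noncoding RNA that restrains transcription elongation, at 12.39 on both. Fth1, the ferritin heavy chain, was at 11.63 and 12.07. Tuba1c, an α-tubulin gene, was at 12.60 and 12.71, and Hmgb1, a DNA-bending chromatin protein, at 11.21 and 11.50. Cpa3 and Cd63 lay within 2-fold between the mast cell arrays, and both were over 4-fold lower in lymphoid cells, at 5.28 and 7.24.

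Transcription factors and progenitor genes gave little signal. None of 27 measured mast cell transcription factor genes exceeded 8. Their levels ran from 6.05 to 7.76 in progenitors and from 6.05 to 7.77 in mature cells, with Gata2 at 7.59 in both. Of 22 stem and progenitor genes Myb alone did, at 6.38 in progenitors and 8.21 in mature cells, and Cd34, a surface protein of early blood cells, was just short of the entry level at 7.85 and 7.82. Of 29 measured replication genes 2 exceeded 8, Rfc2 and the primase gene Prim1 (6.10 and 8.20), both lower in progenitors.

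Genes with more than 1 probe set allowed the only repeated measurement within an array. Of the 153 lower genes 38 had several probe sets. Another probe set of the gene was lower in progenitors for 20 of the 38 and past 4-fold for 8. In 8 of the 38 another probe set also exceeded 8, and for 6 of these it was past 4-fold in the same direction. Those 6 passed 8 through the mature array alone, so entry and difference are not independent. Ywhaz had further probe sets at 7.30 against 11.41 and at 8.45 against 9.23. Rhoa had one at 5.39 against 9.56 and one with 9.35 on both arrays. For Ube2l3 the other probe sets showed no such difference, at 6.78 against 6.42 and at 7.27 on both. Second probe sets above 8 on both arrays were found for 4 genes (Cct6a, Rhoa, Ywhah and Ywhaz), of which 0 differed by 4-fold and 3 had equal values.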

How the data were processed

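The deposited table holds log2 levels of 41345 probe sets on 3 arrays. The authors made them with RMA, according to the submitters' processing notes, in a version not given there. RMA subtracts background, aligns the arrays' distributions and combines probes. The values lie between 2.23 and 13.7, as log2 RMA values do. The genome build and detection calls are not given in the sources used here. The platform's gene table named 1 gene for 23521 probe sets and several for 1814, and 16010 were unnamed there. Each gene took the probe set whose mean over the 3 arrays was highest.

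Differences are progenitors minus mature mast cells, computed in Python 3.11.15 with pandas 2.3.3 and counted by code tested on simulated data. Where the dimmer level lay below the median of its array (6.32 in progenitors, 6.30 in mature cells), a fold is a bound over that median, and none is given where the bound was under 4. With 1 array per population no test was made, and the number of arrays limits the precision.

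The rule for members, the fold limits, 55 gene lists and the alternatives were chosen with earlier results of these data known, and 3 lists (mitochondrial genome, histones, microRNA genes) were added after the values were seen. Genes named came from the 20 largest differences in each direction and the 20 brightest genes within 2-fold, with ordinary symbols; the markers; up to 6 genes above 8 per list, by size of difference; and 10 lower genes nearest to mature cells and 10 at or below progenitors in the lymphoid array. Aldh2, Arpc5, Atp5k, Capza1, Cd34, Gata2, Lat, Naca, Plek, Ssr1, Tpsab1, Uqcrb, Vim, Ywhah and 3 microRNA genes (Mir15a, Mir32, Mir497) lie outside this rule and were chosen after their values were seen. Promoter and microRNA sequences were read from RefSeq tables of GRCm38.p6.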

Additional observations from a re-analysis of the deposited data

How the results depend on the processing

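No paired analysis was possible because each population has 1 array. The counts of 4-fold lower genes stayed within 1.5 times of 153 (126 to 174) with the mean over a gene's probe sets, the brightest probe set by the mast cell arrays, a level of 7, centring on the median of the 931 genes, quantile normalization, ordinary symbols and dim levels raised to the array median, the last added after the data were seen. With the mean over probe sets, 122 of the 153 remained 4-fold lower. That setting can change only the 38 of the 153 with several probe sets. Most of those 38 therefore dropped out, and the count stayed near 153 largely by construction. With a level of 7 the 2-fold higher count was 101 and the median difference 0.0. With a level of 9 there were 98 genes 4-fold lower, 159 lower and 41 higher by 2-fold, and the median was -0.53. Quantile normalization, over 955 genes, gave a median of 0.021, and -0.04 over the 931 genes themselves. With ordinary symbols alone 5 genes were 4-fold and 24 genes 2-fold higher, and the median was -0.40. Among genes above 8 on both arrays, also added later, 13 were lower and 2 higher by 4-fold, 51 and 23 by 2-fold, and the median was 0.0. Centring moves every difference by 0.14, and list medians near 0 (mitochondrial genome, mitosis, immediate early genes) changed sign under centring or quantile normalization. Of 1639 values of named genes under these alternatives 7 moved (each with the mean over probe sets), 3 newly passed 4-fold and 16 fell short of it. Named genes that no longer exceeded the entry level under a setting have no value there and are not in these counts. With the mean over probe sets Ube2l3, Rps28, H2ac21 and Hnrnph2 were among the genes left out in this way, so the counts understate how many named genes changed. Among the 16 were Eef1a1 and Psmc2 with the mean over probe sets and Cks2, Hpgds and Chp1 with dim levels raised. A change of sign was looked for only in the 78 of 211 named genes past 4-fold, and 0 were found. Centring and raised dim levels could not reverse such a gene. Levels of 7 and 9, ordinary symbols and both arrays change only which genes enter. Values of named genes under those settings equal the main ones by construction and do not speak to stability.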
